A study of Mus musculus with 2 samples.

Results

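The genes of the NCoR/SMRT corepressor complex examined here were Tbl1x, Tbl1xr1, Ncor1, Hdac3 and Gps2, picked by their symbols, and they make up 5 of the 22383 features counted in single mouse islet cells. They were followed by library, by the hormone a cell mainly made, and by whether a cell held a transcript of the added Cre gene. Each of 2 groups of mice aged 5 weeks was profiled as 1 library of 150 islets pooled from 4 animals. Mice labelled TBL/RBKO carried Cre recombinase knocked into the Ins1 locus and loxP-flanked (fl/fl) alleles of both Tbl1x and Tbl1xr1, while the controls, labelled wildtype, were Cre-negative littermates per the study's methods. Both groups had a C57BL/6 N background, and the islets were cultured overnight before cells were separated. Deletion in this model depends on Ins1-driven Cre, so cells that never used Ins1 keep intact alleles. Which exons are flanked by loxP is not given in the sources used here.

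The NCoR/SMRT complex is brought to DNA by transcription factors such as unliganded nuclear receptors, and it removes acetyl groups from histones to keep target genes silent. NCOR1 is its scaffold, HDAC3 its deacetylase and GPS2 a small subunit that ties the scaffold to TBL1X and TBL1XR1. The latter pair are closely related WD40-repeat proteins that hold the complex on chromatin and also recruit the ubiquitin machinery that exchanges corepressors for coactivators. In β-cells, deacetylation of this kind is part of how genes unfit for a mature insulin-secreting cell are kept off.

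Because Tbl1x and Tbl1xr1 are paralogs, their transcripts were first compared, to see whether reads could be shared between them. Over 1539 aligned coding bases of the main transcripts 77.1% were identical, and the longest identical run was 20 bases. None of the 5440 windows of 50 bases in the Tbl1x transcript occurred in any of the 30 annotated Tbl1xr1 transcripts, and none of 8108 windows occurred the other way. The stretch below is the last 30 bases of aligned coding sequence that lie within 1 exon of both genes. It shows how the paralogs differ near the end of their coding sequence, with capitals at the 8 bases that are not the same.
Tbl1x: aaagtGggTgccagCgcAtcTgaTggCtcC
Tbl1xr1: aaagtTggAgccagTgcTtcGgaCggTtcA
These bases lie at chrX:76702379-76702408 (plus strand) and chr3:22263748-22263777 (plus strand) of GRCm39, both in coding exons.

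In the GENCODE M39 annotation of GRCm39 the Tbl1x gene spans chrX:76554141-76706597 on the plus strand and Tbl1xr1 spans chr3:22129947-22270770 on the plus strand, each with 16 exons in the main transcript. Ncor1 spans chr11:62206297-62349368 on the minus strand with 47 exons, and Hdac3 spans chr18:38068897-38088077 on the minus strand with 15. Gps2 spans chr11:69804714-69808899 on the plus strand with 10 exons. Introns take up 96.4% of the Tbl1x gene and 94.2% of Tbl1xr1, against 66.5% of Gps2. A UMI, the tag that marks 1 captured transcript, is counted here per gene, so the values do not show where on a gene the reads fell or whether the loxP-flanked part was present. Ncor1 shares 16429 bases with Ttc19 and 1123 with Pigl, and Gps2 shares 1478 bases with Eif5a, each on the opposite strand. On its own strand Tbl1x shares 8311 bases with the long non-coding RNA gene Gm61926 and 173 with the small nuclear RNA gene Gm55070. On the opposite strand Tbl1x shares 1518 bases with Gm61928, and Tbl1xr1 shares 360 with Gm43672 and 622 with the pseudogene Gm5842. None of these genes that overlap Tbl1x or Tbl1xr1 is among the features counted.

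Barcodes with more than 2500 detected genes and under 10% mitochondrial UMIs were kept, which left 4747 of 7067 in the control (230508816 UMIs) and 4179 of 5833 in the library labelled TBL/RBKO (175863899 UMIs). Of these, 12 barcodes occurred in both libraries. A barcode was placed in the class of its most abundant hormone, either insulin (Ins1 plus Ins2), glucagon, somatostatin or pancreatic polypeptide (PP), if that reached 100 UMIs per 10000, and otherwise in the no-hormone class. Control and TBL/RBKO-labelled libraries gave 2877 and 1338 barcodes of the insulin class, 1284 and 1546 of the glucagon class, 223 and 374 of the somatostatin class, 259 and 495 of the PP class, and 104 and 426 of the no-hormone class. All 8 β-cell markers reached 10 CPM (UMIs per 1000000 UMIs) in the insulin class of both libraries, all 6 α-cell markers in the glucagon class, all 4 δ-cell markers in the somatostatin class and all 3 PP markers in the PP class. That threshold alone does not separate the classes, since all 6 α-cell markers also reached it in the PP class and all 3 PP markers in the glucagon and somatostatin classes. In summed CPM each list was highest in its own class in both libraries, as for the α-cell markers with 199311 and 150808 in the glucagon class against 15240 and 10828 in the PP class, the next highest. No doublets were removed. A second hormone at the same threshold was found in 16.3% of insulin-class barcodes in the control against 60.8% in the library labelled TBL/RBKO, and its part in the values below was tested only by leaving those barcodes out.

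Insulin transcripts took 49.6% of all UMIs of the insulin class in the control against 27.9% in the library labelled TBL/RBKO, which moves the CPM of every other gene. A second scale, the hormone-free CPM, was therefore also used. Its denominator leaves out the UMIs of Ins1, Ins2, Gcg, Sst, Ppy, Pyy, Iapp and the mitochondrial genes. The insulin-class ratios of the members are given on both scales, while those of wider gene lists are mostly on the CPM scale only. In the insulin class the change of scale lowered each log2 ratio by 0.45, and in the PP class by 0.32. It lowered them by 0.08 in the glucagon class and by 0.03 in the somatostatin class. Each group being 1 library, the spread between replicates is not known and no test was run. Intervals are 95% exact counting intervals and cover counting error only.

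The targeted genes went against the label. In the insulin class Tbl1x had 96.9 CPM in the control against 351 CPM in the library labelled TBL/RBKO, from 17659 and 35424 UMIs. Its log2 ratio was 1.86 (1.83 to 1.88) on the CPM scale and 1.40 (1.38 to 1.43) on the hormone-free scale, where the levels were 233 and 616. Tbl1xr1 had 20.0 CPM and 129 CPM from 3651 and 12982 UMIs, a log2 ratio of 2.68 (2.63 to 2.73), or 2.23 (2.18 to 2.28) hormone-free with levels of 48.1 and 226. Both targeted genes were thus higher by 2.65-fold and 4.69-fold on the hormone-free scale. The insulin class also held 3107 of the 3170 Cre UMIs in kept barcodes. Whether the UMIs of both targeted genes came from transcripts that lacked the loxP-flanked part cannot be told from counts per gene. Markers of other islet cells were also higher in the insulin class of the library labelled TBL/RBKO. The 6 α-cell markers summed to 9183 CPM against 5943, the 4 δ-cell markers to 5256 against 2998 and the 3 PP markers to 52827 against 7578. The 4 ductal markers summed to 650.2 against 183, mostly from Krt7 at 434 against 157. Krt7 was at 4.19 CPM in the no-hormone class of the control, so it does not single out ductal cells here. The part of other cell types in the difference was not tested beyond leaving out barcodes with a second hormone. That left the Tbl1x log2 ratio at 1.69 and that of Tbl1xr1 at 2.56.

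The 3 members that were not targeted differed less. Ncor1, the scaffold, had 206 and 292 CPM, a log2 ratio of 0.50 (0.48 to 0.53) that was 0.05 (0.03 to 0.07) hormone-free with levels of 495 and 513. Hdac3, the deacetylase, had 11.9 and 11.8 CPM, a log2 ratio of -0.02 (-0.12 to 0.09), which was -0.47 (-0.57 to -0.37) hormone-free with levels of 28.6 and 20.7. Gps2 had 24.9 and 31.2 CPM, and its log2 ratio of 0.32 (0.26 to 0.39) turned to -0.13 (-0.19 to -0.06) hormone-free. Over the 7918 genes that reached 10 CPM in at least 1 library the log2 ratio had a median of 0.31 on the CPM scale and -0.14 hormone-free. Relative to that median Ncor1 was at 0.19, Gps2 at 0.01 and Hdac3 at -0.33, against 1.54 for Tbl1x and 2.37 for Tbl1xr1. In that class 2 of 5 members reached a log2 ratio of 1 and none reached -1. The background was 8.27% of genes at 1 or more and 1.25% at -1 or less on the CPM scale, and 3.57% and 3.02% hormone-free. On the CPM scale 1.89% of these genes had a ratio at or above that of Tbl1x and 0.796% at or above that of Tbl1xr1.

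**Figure D1:**
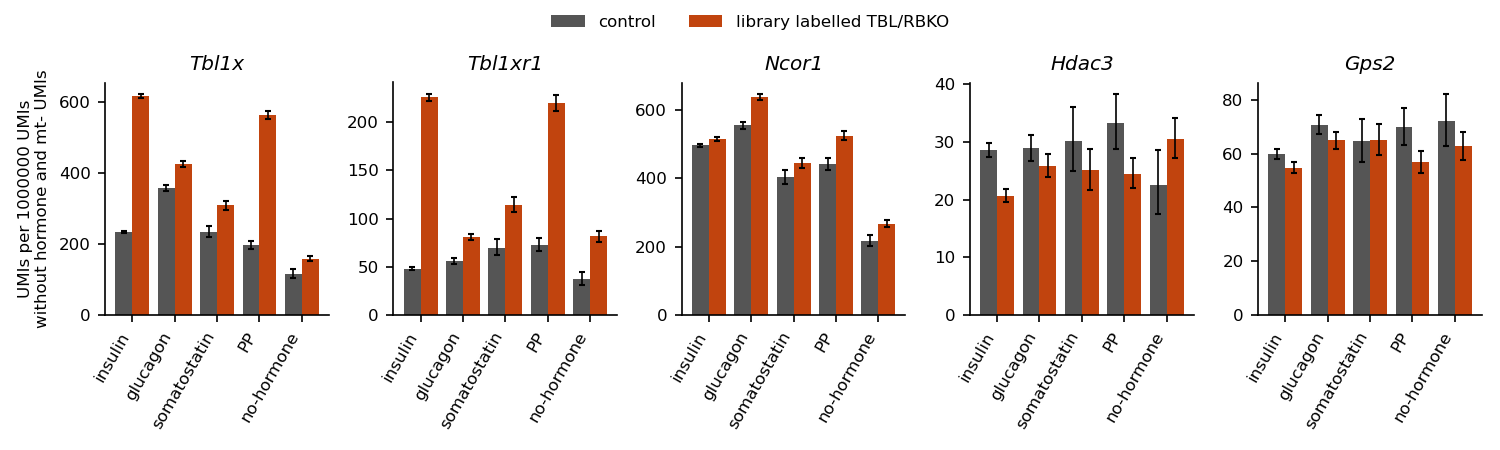
Level of each complex gene by hormone class, in UMIs per 1000000 UMIs without hormone and mitochondrial UMIs, for the control (grey) and the library labelled TBL/RBKO (orange), with 1 library per group and bars of 95% counting intervals. In the insulin and PP classes Tbl1x and Tbl1xr1 stand well above the control, while Ncor1, Hdac3 and Gps2 differ from it less.

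The difference was seen barcode by barcode and was not carried by a few cells. The median insulin-class barcode held 5 Tbl1x UMIs in the control against 23 in the library labelled TBL/RBKO, and 1 and 8 Tbl1xr1 UMIs. As a share of hormone-free UMIs per 10000, Tbl1x ran from 1.35 to 3.06 between the quartiles in the control (median 2.13) and from 3.88 to 8.08 in the other library (median 5.71), so that the ranges between quartiles did not overlap. Tbl1xr1 ran from 0 to 0.717 (median 0.404) and from 1.19 to 3.09 (median 1.99), again with no overlap. The 95th percentile of control barcodes was exceeded by 59.2% (56.5 to 61.8) of insulin-class barcodes of the library labelled TBL/RBKO for Tbl1x and by 65.4% (62.8 to 67.9) for Tbl1xr1. The same share was 4.93% for Ncor1, 0.897% for Hdac3 and 1.94% for Gps2. With every barcode thinned to 5000 hormone-free UMIs, a Tbl1xr1 UMI was found in 21.5% of control barcodes (63.5% before thinning) and in 60.6% (95.4%) of the others, and a Tbl1x UMI in 66.1% (95.3%) and 90.1% (99.2%). At that depth the shares were 89.8% and 89.2% for Ncor1, 12.7% and 10.3% for Hdac3 and 25.3% and 21.7% for Gps2. Thinning left out 8 shallower control barcodes of the insulin class and 0 of the other library.

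**Figure D2:**
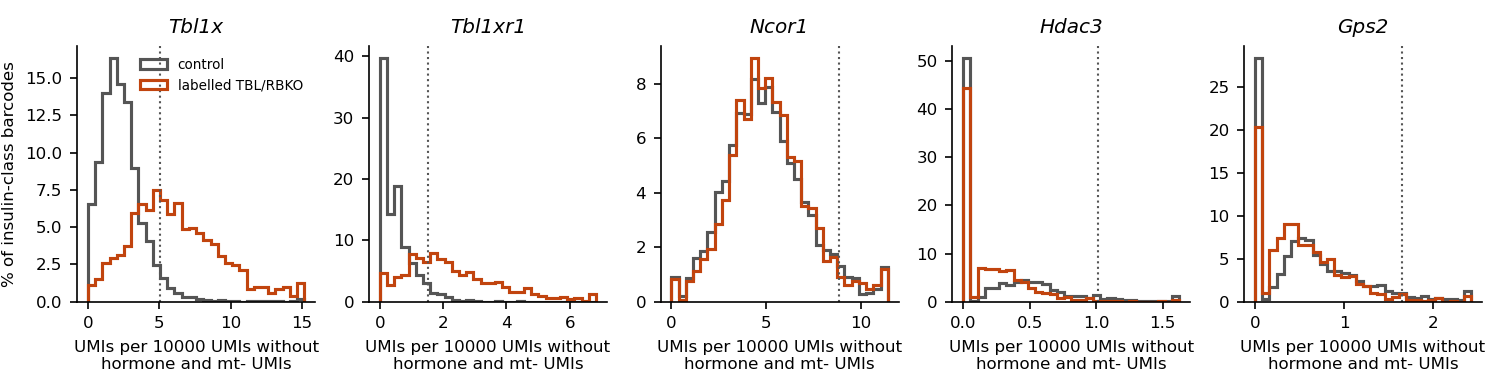
Share of insulin-class barcodes (%) by their content of each complex gene, in UMIs per 10000 UMIs without hormone and mitochondrial UMIs, for 2877 control barcodes (grey) and 1338 of the library labelled TBL/RBKO (orange). The dotted line is the control's 95th percentile and values past the axis are held in the last bin. The orange curves of Tbl1x and Tbl1xr1 lie largely to the right of the line, while those of Ncor1, Hdac3 and Gps2 overlap the control.

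High Tbl1x and high Tbl1xr1 tended to occur in the same barcodes. In the library labelled TBL/RBKO 658 of the insulin-class barcodes (49.2%) exceeded the control's 95th percentile for both genes, 134 for Tbl1x alone and 217 for Tbl1xr1 alone, and 329 (24.6%) for neither. Since 59.2% and 65.4% of these barcodes exceeded it for Tbl1x and for Tbl1xr1, many would exceed both without any link between the genes. In the control 19 barcodes (0.66%) exceeded both. Across barcodes Pearson's r between the hormone-free shares of the paralogs was 0.53 (n = 1338) in the library labelled TBL/RBKO and 0.11 (n = 2877) in the control, a description over barcodes of 1 library each. The same r was 0.72 in the PP class (n = 495) and 0.46 in the somatostatin class (n = 374) of the library labelled TBL/RBKO, and 0.13 in its glucagon class (n = 1546). The control had -0.05, 0.06 and 0.06 in these classes. In the library labelled TBL/RBKO both genes also varied with the insulin share of a barcode. Their r with it was -0.34 (Tbl1x) and -0.36 (Tbl1xr1) in the insulin class, and 0.42 and 0.32 in the PP class. The part of insulin share in the r between the paralogs was not tested. Ncor1, which was not targeted, also varied with both genes. In the insulin class its r was 0.34 with Tbl1x and 0.36 with Tbl1xr1 in the library labelled TBL/RBKO, and 0.24 and 0.14 in the control. In the no-hormone class of the library labelled TBL/RBKO, Tbl1x had an r of 0.54 with Ncor1 and 0.37 with Tbl1xr1. With Hdac3 and Gps2 the r of either gene lay between -0.08 and -0.03 in that library's insulin class. Median insulin was 1728 UMIs per 10000 in the barcodes high for both genes and 3803 in those high for neither, while the shares with a Cre UMI were 20.2% and 18.5%.

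Levels fell as the insulin content of a barcode rose. In barcodes with under 2000 insulin UMIs per 10000 the hormone-free level of Tbl1x was 294 (277 to 312) in the control against 710.1 (700.1 to 720.2) in the library labelled TBL/RBKO. It was 238 and 573 from 2000 to 4000, and 233 and 465 from 4000 to 6000, where the control intervals of these middle bins overlapped. From 6000 upward it was 194 in 385 control barcodes and 329.5 (280.3 to 385) in the 21 barcodes of the other library, which is few. Tbl1xr1 went the same way, with 63.0 and 266 in the lowest bin, 51.8 and 214, 48.2 and 148, and 34.8 and 116 in the highest. At like insulin content the log2 ratio between libraries was 1.27, 1.27, 0.99 and 0.77 for Tbl1x, and 2.08, 2.04, 1.62 and 1.74 for Tbl1xr1. Both genes were thus higher in the library labelled TBL/RBKO in each of the 4 bins, with Tbl1x below a log2 ratio of 1 in the bins from 4000 upward. The lowest bin was unlike in depth. Its 204 control barcodes had a median of 10083 UMIs, against 62217 in the other library and 56315 in the next control bin.

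For the members that were not targeted the same bins gave small and mixed differences. Ncor1 had log2 ratios of 0.13, 0.05, -0.13 and -0.22 from the lowest to the highest bin. Hdac3 was lower in the library labelled TBL/RBKO in each bin, at -0.46, -0.39, -0.37 and -0.44, with an interval that included 0 in the last (-1.52 to 0.46). Gps2 was at -0.44 (-0.63 to -0.24) in the lowest bin, -0.11 and 0.00 in the middle bins and -0.93 in the highest, where it rested on 15 UMIs.

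**Figure D3:**
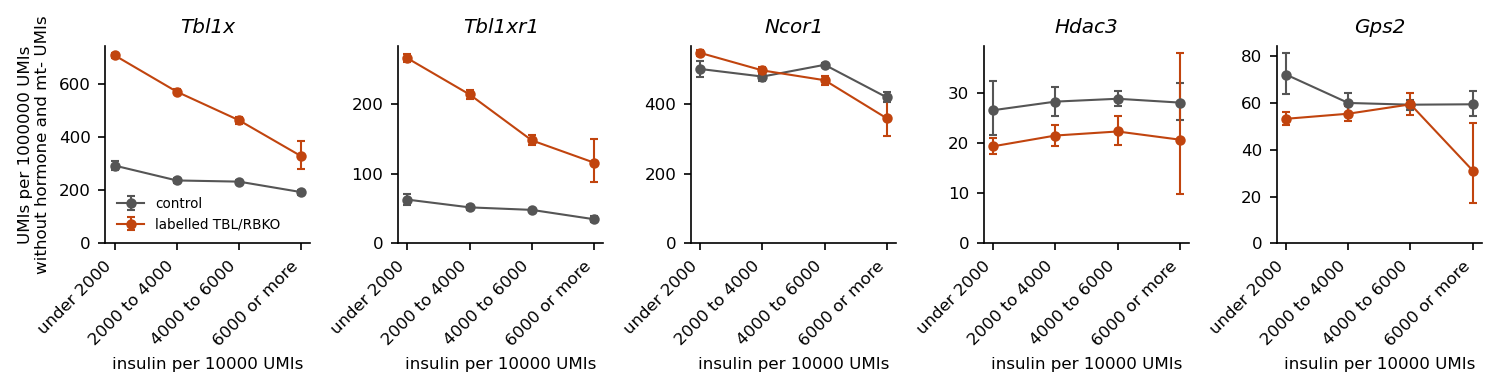
Level of each complex gene in insulin-class barcodes by insulin content (UMIs per 10000 UMIs), in UMIs per 1000000 UMIs without hormone and mitochondrial UMIs, for the control (grey) and the library labelled TBL/RBKO (orange) with 95% counting intervals. Tbl1x and Tbl1xr1 fall from left to right in both libraries, though the middle control bins overlap. The orange points of both stay above the control in all bins, and the last orange point rests on 21 barcodes.

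Cre transcripts followed the labels. No Cre UMI (0) was found in the control, and at a floor of 3 counts that allows up to 0.013 CPM over its kept barcodes. The library labelled TBL/RBKO held 3247 UMIs of the plus-strand Cre feature in 329 barcodes, of which 3170 UMIs in 306 barcodes passed the filter, with a median of 3 and a maximum of 176 UMIs in a Cre-bearing barcode. Among its classes 20.5% of insulin-class barcodes had a Cre UMI, at a median depth of 67897 UMIs. In the glucagon class, which should lack Ins1-driven Cre, the share was 0.712% at 18801 UMIs, and it was 0.535% in the somatostatin class, 3.03% in the PP class and 0.939% in the no-hormone class. Thinned to 10000 UMIs, the shares were 10.1% in the insulin class, 0.361% in the glucagon class and 1.22% in the PP class, with 9, 160 and 5 shallower barcodes left out. Within the insulin class the share with Cre rose with insulin content, from 14.6% under 2000 to 22.8% and 28.1% in the next bins, and was 23.8% in the 21 barcodes at 6000 and over. Cre itself rose from 28.7 to 56.0, 113 and 141 hormone-free CPM over these bins, opposite in order to Tbl1x and Tbl1xr1.

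Within the library labelled TBL/RBKO, insulin-class barcodes with and without a Cre UMI, pooled over insulin content, differed little in hormone-free Tbl1x. The level was 619 (605 to 632) in 274 barcodes with Cre and 615 (608 to 622) in 1064 without, a log2 ratio of 0.01 (-0.03 to 0.04), and -0.13 (-0.17 to -0.09) on the CPM scale with 328 and 358 CPM. Tbl1xr1 was lower with Cre on both scales, at 206 against 231 hormone-free (log2 ratio -0.17, -0.23 to -0.10) and 109 against 135 CPM (log2 ratio -0.30, -0.36 to -0.24). Set against the control insulin class, both kinds of barcode were high, with hormone-free log2 ratios of 1.41 with Cre and 1.40 without for Tbl1x, and 2.10 and 2.26 for Tbl1xr1. Both genes stayed far above the control at every Cre count. Tbl1x was at 650.0, 599 and 609 in barcodes with 1, 2 to 9 and 10 or more Cre UMIs (94, 98 and 82 barcodes), and Tbl1xr1 at 201, 212 and 206.

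Barcodes with a Cre UMI were also deeper, with a median of 81403 UMIs against 64693, and richer in insulin, with 3123 against 2149 UMIs per 10000. At like insulin content the hormone-free Tbl1x log2 ratio of barcodes with Cre over those without was 0.06 (0.004 to 0.11) under 2000. It was 0.08 (0.02 to 0.14) from 2000 to 4000 and 0.19 (0.10 to 0.27) from 4000 to 6000. From 6000 upward it was 0.56 (0.06 to 1.04), from 5 barcodes with Cre and 16 without. Tbl1x was thus higher with Cre beyond counting error in each bin, though not in the pooled barcodes. Over the same bins that of Tbl1xr1 was -0.17 (-0.26 to -0.07), 0.03, 0.00 and -0.11 (-1.10 to 0.79). The lower Tbl1xr1 with Cre thus lay beyond counting error in the lowest of these bins alone. A barcode without a Cre UMI can still have expressed Cre, since the share with one rose from 9.30% under 20000 UMIs to 12.9%, 17.5% and 27.9% at 80000 and over. Ncor1 had a hormone-free log2 ratio of -0.02 (-0.06 to 0.02) with Cre over without, Hdac3 -0.05 (-0.26 to 0.15) and Gps2 0.06 (-0.07 to 0.18), each with an interval that included 0.

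**Figure D4:**
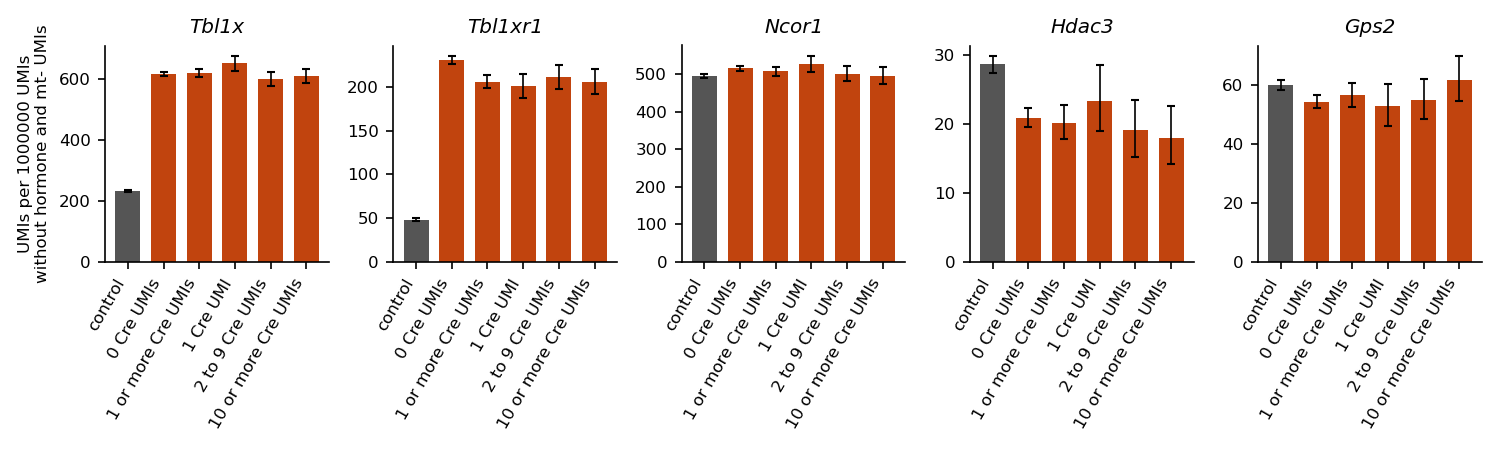
Level of each complex gene in insulin-class barcodes of the control (grey) and of the library labelled TBL/RBKO (orange) by number of Cre UMIs, in UMIs per 1000000 UMIs without hormone and mitochondrial UMIs, with 95% counting intervals. The group of 1 or more Cre UMIs holds the 3 groups to its right, and the orange bars of Tbl1x and Tbl1xr1 all stand far above the control whatever the Cre count.

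Outside the insulin class the targeted genes were also high against the control in the PP class, where the hormone-free ratio of Tbl1x was above that of the insulin class and the ratio of Tbl1xr1 below it. Tbl1x had 103 CPM in the control against 367 CPM in the library labelled TBL/RBKO, a log2 ratio of 1.83 (1.74 to 1.92), or 1.51 hormone-free. Tbl1xr1 had 38.0 and 143 CPM, a log2 ratio of 1.91 (1.77 to 2.07), or 1.59 hormone-free. Ncor1 was at 0.57, Hdac3 at -0.12 and Gps2 at 0.03, beside a median of 0.26 over 8644 genes, so that 2 of 5 members reached a log2 ratio of 1 where 7.13% of genes did and none reached -1 (0.474% of genes). Hormone-free, Ncor1 was at 0.25, Hdac3 at -0.44 (-0.70 to -0.18) and Gps2 at -0.29 (-0.47 to -0.12), beside a median of -0.06. The count of members was the same on that scale, beside 4.11% and 1.46% of genes.

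In the glucagon class Tbl1x had 263 and 330.5 CPM (log2 ratio 0.33, 0.29 to 0.37) and Tbl1xr1 had 41.0 and 62.7 CPM (0.61, 0.51 to 0.72). None of the 5 members reached a log2 ratio of 1 (0.879% of genes, 0.757% hormone-free) or -1 (0.134%, 0.145% hormone-free) there on either scale. Ncor1 was at 0.28 (0.24 to 0.31), Hdac3 at -0.09 (-0.25 to 0.07) and Gps2 at -0.05 (-0.15 to 0.06), with the median of all genes at 0.10. The somatostatin class was similar, with 0.43 (0.32 to 0.54) for Tbl1x from 173 to 233 CPM and 0.74 (0.54 to 0.94) for Tbl1xr1 from 51.9 to 86.6 CPM, and again no member at 1 (0.931%, 0.866% hormone-free) or -1 (0.53%, 0.541% hormone-free). There Ncor1 was at 0.16, Hdac3 at -0.24 (-0.57 to 0.10) and Gps2 at 0.04.

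In the no-hormone class Tbl1x was at 0.43, Ncor1 at 0.28, Hdac3 at 0.43 and Gps2 at -0.22, while Tbl1xr1 was at 1.11 (0.83 to 1.41) from 36.4 to 78.7 CPM, the 1 member of 5 at 1 or more, where 12.4% of genes were, with 7.53% at -1 or less (12.5% and 7.4% hormone-free). The make-up of this class differed between libraries. The 4 B-cell markers summed to 2.90 CPM in the control, with 2 of them at 0, and to 942 CPM in the library labelled TBL/RBKO. The 4 endothelial markers summed to 3056 and 541 CPM, the 4 macrophage markers to 3604 and 1406 CPM, and the 4 stromal markers to 7940 and 6077 CPM. Cell make-up and level cannot be told apart in this class.

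The order of the classes therefore differed between libraries. Hormone-free Tbl1x in the control was highest in the glucagon class at 356, followed by the insulin and somatostatin classes at 233 each, whose intervals overlapped, the PP class at 197 and the no-hormone class at 116. In the library labelled TBL/RBKO the insulin class led at 616, then came PP at 562, glucagon at 425, somatostatin at 308 and no-hormone at 158. Tbl1xr1 in the control was highest in the PP class at 72.8 and the somatostatin class at 69.8, which did not differ beyond their intervals, then glucagon at 55.6, insulin at 48.1 and no-hormone at 37.4. In the other library it was at 226 in the insulin class and 219.8 in the PP class, again with overlapping intervals, then 114 in somatostatin, 81.6 in no-hormone and 80.7 in glucagon. For Ncor1 the glucagon class was highest in both libraries, at 554 and 637, and the no-hormone class lowest, at 217 and 266. Gps2 stayed between 59.9 and 72.1 in the control and between 54.8 and 65.1 in the other library, and Hdac3 between 22.5 and 33.3 and between 20.7 and 30.5.

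Splitting the other classes by their insulin content, at thresholds chosen after the values had been seen, gave the largest differences in the barcodes that also held insulin. In the PP class of the library labelled TBL/RBKO the hormone-free level of Tbl1x was 251 (238 to 266) in 249 barcodes with under 20 insulin UMIs per 10000, 619 (586 to 653) in 90 barcodes from 20 to 100 and 782 (761 to 804) in 156 barcodes at 100 or more. Tbl1xr1 was at 99.95 (91.4 to 109), 272 and 295 in the same barcodes. In the control, where no barcode of the PP class fell under 20, Tbl1x was at 201 from 20 to 100 (196 barcodes) and 181 at 100 or more (63 barcodes), and Tbl1xr1 at 73.9 and 68.6. Against all control barcodes of the class, the barcodes with under 20 had log2 ratios of 0.35 (0.23 to 0.46) for Tbl1x and 0.46 (0.27 to 0.65) for Tbl1xr1.

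The glucagon and somatostatin classes had the same shape at the upper threshold. In the glucagon class of the library labelled TBL/RBKO Tbl1x was at 397, 416 and 595 and Tbl1xr1 at 66.7, 71.1 and 180.4 from the lowest to the highest insulin content (866, 590 and 90 barcodes). In the somatostatin class Tbl1x was at 237, 285 and 591 and Tbl1xr1 at 84.6, 112 and 222 (234, 105 and 35 barcodes). The control had 356 and 357 for Tbl1x and 55.7 and 55.6 for Tbl1xr1 in the glucagon class, and 233 and 235 for Tbl1x and 79.0 and 55.4 for Tbl1xr1 in the somatostatin class, from 20 to 100 and at 100 or more. Within the library labelled TBL/RBKO, barcodes at 100 or more exceeded those under 20 by log2 ratios of 0.58 (glucagon), 1.32 (somatostatin) and 1.64 (PP) for Tbl1x, and 1.44, 1.39 and 1.56 for Tbl1xr1. In the no-hormone class Tbl1x was at 123 under 20 and 327 from 20 to 100, Tbl1xr1 at 72.9 and 123, and Ncor1 at 219.8 and 491. The members that were not targeted did not follow them together, with Ncor1 at -0.17, 0.14 and 0.37 and Hdac3 at -0.52, 0.09 and -0.75 in the glucagon, somatostatin and PP classes.

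Barcodes at 100 or more in the glucagon, somatostatin and PP classes of the library labelled TBL/RBKO were deeper, with medians of 26355, 33908 and 36146 hormone-free UMIs against 16192, 16359 and 15895 in barcodes under 20, and doublets with insulin-class cells were not called. Barcodes from 20 to 100 had medians of 12099, 14351 and 16341, and in the no-hormone class 9781 against 21798 under 20. A Cre UMI was found in 1 of 90 (1.11%), 1 of 35 (2.86%) and 11 of 156 (7.05%) barcodes at 100 or more, against 0.693%, 0 and 0.402% of those under 20. No-hormone barcodes, whose insulin UMIs can come from free RNA, had a median of 66.5 insulin UMIs per 10000 in the control against 15.7 in the library labelled TBL/RBKO, so the threshold of 20 lies close to that level in the latter and below it in the former. Of the glucagon class, 603 control barcodes but 90 of the other library reached 100 insulin UMIs per 10000. The control barcodes showed no rise in either gene. They were shallower, with a median of 11945 hormone-free UMIs against 17189 from 20 to 100. In the control neither gene was higher in the insulin class than in the glucagon class (hormone-free Tbl1x 233 against 356, Tbl1xr1 48.1 against 55.6). The lack of a rise there thus does not bear on admixed insulin-class RNA, whose part was not tested.

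**Figure D5:**
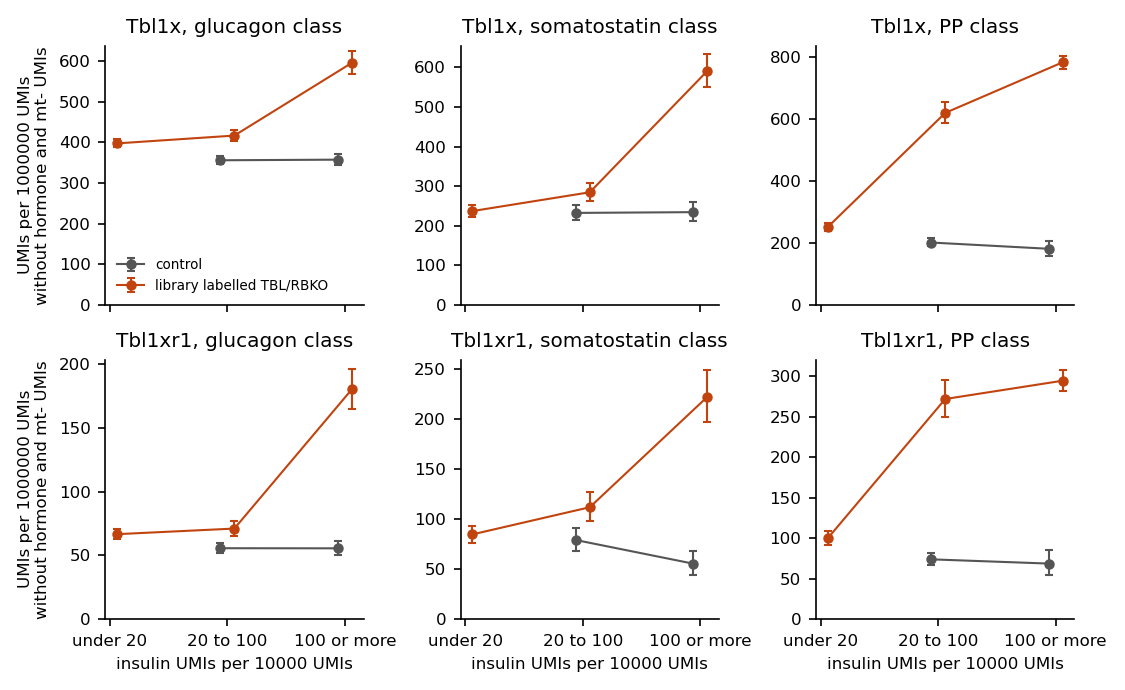
Levels of Tbl1x (top) and Tbl1xr1 (bottom) in the glucagon, somatostatin and PP classes by insulin content (UMIs per 10000 UMIs), in UMIs per 1000000 UMIs without hormone and mitochondrial UMIs, with 95% counting intervals. In the library labelled TBL/RBKO (orange) both genes rise with insulin content, and in the control (grey), which has no barcodes under 20, Tbl1x is level and Tbl1xr1 is level or lower.

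In the insulin class itself a second hormone made less difference. Among barcodes of the library labelled TBL/RBKO with no second hormone (525) Tbl1x was at 589 and Tbl1xr1 at 222 hormone-free CPM, and among the 568 whose second hormone was PP they were at 663 and 249. With glucagon as the second hormone (145) they were at 559 and 180.5, and with somatostatin (100) at 558 and 189, below the barcodes with no second hormone. The matching control values were 232 and 47.7 with no second hormone, 184 and 45.4 with PP, 258 and 41.9 with glucagon and 226 and 62.1 with somatostatin.

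The wider corepressor machinery was read in the insulin class, with the median log2 ratio of all genes at 0.31. The counts below stand beside the same background of 8.27% of genes at 1 or more and 1.25% at -1 or less on the CPM scale, and 3.57% and 3.02% hormone-free. Among partners of the complex, the histone demethylase Kdm4a was at 0.20 (16.4 to 18.8 CPM), and Zbtb33 and Coro2a stayed under 10 CPM in both libraries. Of the class IIa deacetylases, which lean on HDAC3 for activity, 1 of 3 tested was at 1 or more on the CPM scale and 0 hormone-free, with Hdac5 at 1.17 (16.5 to 37.0 CPM), Hdac9 at 0.44 and Hdac4 at -0.15. Of 16 subunits of the SIN3, NuRD and CoREST corepressors, 1 was at 1 or more on the CPM scale, 0 hormone-free and none at -1 or less, with a median of 0.22. The highest were the histone chaperone Rbbp7 at 1.28 (76.7 to 186 CPM), the remodeller Chd4 at 0.90 and Gatad2b at 0.57, and the lowest were Mbd2 at -0.11, Mbd3 at -0.02 and Gatad2a at 0.01.

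Coactivators and acetyltransferases, which take the place of corepressors on active genes, had 0 of 7 tested genes past a log2 ratio of 1 in either direction and a median of 0.18, from Kat2b at -0.17, Ncoa1 at -0.10 and Crebbp at 0.15 to Med1 at 0.31, Ncoa2 at 0.68 and Ncoa3 at 0.75. Of the ubiquitin enzymes of corepressor exchange 0 of 5 passed, with Siah2 at 0.09, Siah1a at 0.14, Ube2d1 at 0.23, Ube2d3 at 0.43 and Ube2d2a at 0.86. Ssrp1, a subunit of the FACT histone chaperone, was at 0.43 (38.8 to 52.1 CPM), and the other subunit, Supt16h, was not analysed here.

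Of 21 listed transcription factors that recruit the complex, 16 reached 10 CPM in either library and were tested. On the CPM scale 6 of 16 were at 1 or more and none at -1 or less, against 8.27% and 1.25% of all genes. Hormone-free the counts were 6 and 1. Nr1d1 and Rara reached 10 CPM only in the library labelled TBL/RBKO, so the count of 6 rests in part on genes that entered by being high there. Genes of the background entered by the same rule. Nr1d1, a clock repressor that acts through NCoR, went from 3.45 to 18.3 CPM (log2 ratio 2.41, 2.28 to 2.54), the nuclear receptor Pparg from 15.0 to 63.7 CPM (2.09, 2.02 to 2.15) and the retinoic acid receptor Rara from 3.73 to 13.9 CPM (1.90, 1.77 to 2.04). The thyroid hormone receptor Thrb was lowest, from 32.9 to 19.4 CPM (-0.76, -0.84 to -0.69), or -1.22 hormone-free, followed by Nfkb1 at 0.01 and Nr1h2 at 0.09.

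Over the 10 sums of library and class, likeness between genes was measured by Pearson's r of log2(CPM + 1) across 8607 genes, as a description of sums that share libraries and depth. Tbl1x and Tbl1xr1 had an r of 0.79, Tbl1x and Ncor1 0.83, and Hdac3 and Gps2 0.89. Neither targeted gene was tied to Hdac3 (r of -0.11 and 0.00) or Gps2 (0.00 and 0.06). The genes most like Tbl1x were Farp1, Mrpl1 and Fkbp5 (r from 0.97 to 0.96) and those most like Tbl1xr1 were Gramd1b, Map3k1 and Bcl3 (0.96 to 0.94). Ncor1 was close to Setd5 and Ddx6 (0.98), Hdac3 was most like Mrpl41, Fance and Rpl22l1 (0.98 to 0.97) and Gps2 like Ppm1g, Ppil2 and Ccdc174 (0.99).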

How the data were processed

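Islet cells were processed with Chromium 3′ chemistry, and per the labels and the study's methods the authors counted reads with Cell Ranger 7.1.0 (builds named in the submitters' processing notes: GRCm39, mm39). The deposited matrices hold raw UMI counts, with 2 Cre features added, and the study's later filters, free-RNA removal and doublet calls are not in them. The study kept the standard counting settings apart from the expected cell number and the chemistry. Introns may be included in such counts, while the paralogs were compared over annotated transcripts only. The members and lists were chosen with earlier results of these data known. The barcode filter followed the study's lower limit of 2500 genes and 10% mitochondrial UMIs. UMIs of all barcodes of a class in 1 library were added up and divided by all UMIs (CPM) or by UMIs without hormone and mitochondrial genes. Genes entered a comparison at 10 CPM in either library, and a log2 ratio of 1 was the fold used. Sums carry exact Poisson intervals, shares exact binomial ones (Clopper-Pearson) and ratios the exact binomial interval of the split (95%). The ratio script was tested on simulated counts. Besides the members, the text names all other NCoR/SMRT partners and FACT genes, up to 3 highest and 3 lowest genes of each further list, and the 3 genes most like each member. Results for 2 genes that this rule names are not reported here. Alternatives were the second scale, under 6000 genes, no second hormone, 500 hormone UMIs per 10000, equal weight per barcode, under 5% mitochondrial UMIs, bins of total UMIs and a minimum of 1 CPM. The split of other classes by insulin was added after the values were seen. Scripts ran under scipy 1.17.1, numpy 2.4.6, Biopython 1.88, pandas 2.3.3 and matplotlib 3.10.9 (Python 3.11.15). Gene positions were matched by Ensembl identifier for 5 of 5 members.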

Additional observations from a re-analysis of the deposited data

Results flagged for a closer look

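In the library labelled TBL/RBKO the feature for the opposite strand of Cre, used in no comparison, held 3 UMIs, where the control held 0 and that allows up to 2.3 at this depth. Barcodes outside the filter held 77 plus-strand Cre UMIs in 23 of 1654 barcodes of the library labelled TBL/RBKO, where those of the control held 0, which allows up to 2.53 at this depth.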

How the results depend on the processing

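No paired analysis was possible because each group had 1 library, and leaving out a replicate was not possible for the same reason. No log2 ratio past 1 changed sign under any alternative run. In the insulin class the Tbl1x log2 ratio of 1.86 became 1.40 without hormone and mitochondrial UMIs, 1.67 under 6000 genes, 1.69 without second hormones, 1.77 with each barcode counting the same and 1.75 under 5% mitochondrial UMIs, and that of Tbl1xr1 (2.68) became 2.23, 2.61, 2.56, 2.66 and 2.55. The Tbl1x ratio of barcodes with Cre over those without (-0.13) became 0.0082 without hormone and mitochondrial UMIs, -0.27 under 6000 genes, -0.046 without second hormones and -0.075 in bins of total UMIs, and that of Tbl1xr1 (-0.30) became -0.17 and -0.23 in the first and the last of these. Genes past the fold in the insulin class numbered 754 (655 higher, 99 lower), 704 without hormone and mitochondrial UMIs (356 and 348, of the 9760 genes that reached 10 on that scale), 596 under 6000 genes (436 and 160) and 1502 at 1 CPM. In the PP class the CPM log2 ratios of 1.83 and 1.91 became 0.48 for Tbl1x and 0.59 for Tbl1xr1 in barcodes with under 20 insulin UMIs per 10000. The cause of these changes was not tested. Over the other values recomputed, 102 lay within the counting interval of the reported value and 96 outside it, and signs turned only where the reported log2 ratio was 0.433 or less in size. Depth limits Hdac3 most, with 0 or 1 UMI in the median insulin-class barcode.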
